A study of Mus musculus with 63 samples.

Results

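EGFR-null keratinocytes were compared with wild-type keratinocytes in mock-treated culture, with neither a ras oncogene nor an EGFR inhibitor added. The members were the arrays whose titles name EGFR KO or EGFR WT with mock treatment alone, a rule that selected 8 of the 63 arrays of the series. KO mock held 3 samples, numbered 1, 2 and 3. WT mock held 4 samples, numbered 1, 2, 3 and 5, after the 2 arrays labelled repeat 1 were averaged. One of that pair had the dyes reversed, and all KO mock arrays had the forward dye order. The whole series held 62 samples in 13 groups. The other groups, used below for comparison, had ras, an EGFR inhibitor or both. The inhibitors were AG1478, erlotinib and PD153035, each given at 1 µM for 2 h. A culture time of 4 days is given for those groups and none for KO mock and WT mock.

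Every sample was total RNA from skin keratinocytes of newborn CD-1 mice, an outbred strain. KO mock came from total EGFR knock-out mice, which lack the receptor in all cells, and WT mock from EGFR wild-type mice. Each array set 1 sample against a reference pooled from the RNA of 11 mouse cell lines, testis and fibroblast lines among them. All values below are log ratios of sample over reference, read as log2, and a difference is KO mock minus WT mock. The base of the logarithm is an assumption, since the sources used here do not give it. Beyond the series' statement on biological replicates nothing says that samples came from separate mice or cultures. A p-value here speaks for the spread among samples within groups, which was estimated over all 13 groups of the series. That spread may be technical.

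EGFR is a receptor tyrosine kinase that binds EGF, TGF-alpha, amphiregulin and related ligands. In basal keratinocytes it signals through the RAS and ERK kinases to immediate early transcription factors, supports proliferation and survival, and holds back terminal differentiation. Mice without EGFR are known for thin skin, wavy or missing hair and early hair follicle defects.

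All 3 KO mock arrays carry experiment numbers of 1 run of consecutive numbers, run 4 of the 8 runs in the series, and no other group lies in it. WT mock lies in runs 1 and 2. What a run stands for is not given, so genotype and run cannot be told apart in this comparison. KO mock sample 2 stood apart from the other arrays. Its log ratios had an SD of 0.753, the lowest of all 63 arrays, whose SDs reached 1.75. The other KO mock samples had SDs of 1.33 and 1.43, against 1.40, 1.58, 1.49 and 1.12 in WT mock. Its correlation over probes was 0.672 and 0.615 with KO mock samples 1 and 3, which reached 0.807 with each other. Over 621 probes that lie below −3 on average in inhibitor-treated WT mock cells, its median was −1.77, against −3.62 and −4.29 in KO mock samples 1 and 3 and −4.91 to −3.11 in WT mock. Results are therefore also given without it or with all samples scaled to equal spread, where either changed the call of a gene named here or the count of a list. The scaling was chosen after the data were seen. The cells' label was checked against keratinocyte markers, whose median was 5.15, 1.85 and 5.38 in KO mock samples 1, 2 and 3, against 2.74 to 4.53 in WT mock, so each array read keratinocyte RNA above the reference.

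KO mock and WT mock differed at 310 of 27977 probes (1.11%) at an adjusted p under 0.05 in limma, of which 188 were higher and 122 lower. With 1 probe per gene, 177 of 14526 genes passed (1.22%), 122 of them higher (0.84%) and 55 lower (0.379%). The samples of the groups did not overlap at 19.0% of all genes, 11.2% higher in KO mock and 7.74% lower. At an unadjusted p under 0.05 limma gave 2617 of 14526 genes, 1591 higher and 1026 lower. Over all genes the median difference was 0.10, and 55.5% of differences were positive. Without KO mock sample 2 the count of probes was 476, and 1.73% of genes passed, 1.21% higher and 0.523% lower. With all samples scaled to equal spread the count of probes was 1024 (3.66%), and 3.92% of genes passed, 2.44% higher and 1.48% lower. With run as a random block 9 probes passed (0.0322%), at the genes *Slc6a6*, *Fzd1*, *Egr1*, *Dlk1*, *Krt15*, *Mt1*, *Ppp1r37*, *Ptgs2* and *Pid1*. The 8 arrays limit the precision, and the median 95% interval reached 0.90 either side of a difference.

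**Figure D1:**
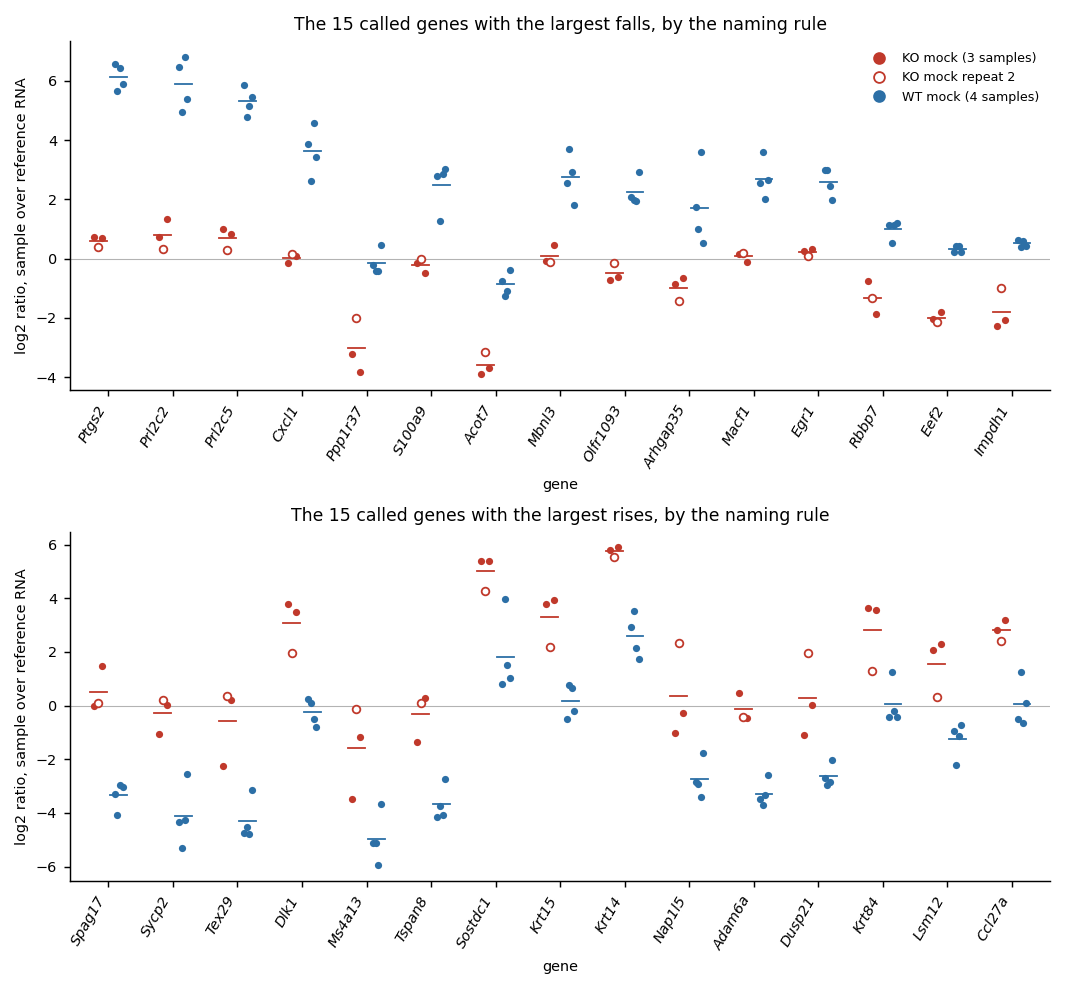
Log2 ratio of sample over reference (vertical axis) for the 15 called genes with the largest fall and the 15 with the largest rise under the naming rule. Each point is 1 sample, KO mock in red left of WT mock in blue, the open red point is KO mock sample 2 and the bars are group means. *Ptgs2*, *Prl2c2* and *Prl2c5* lie at or below 1.33 in every KO mock sample and at or above 4.78 in every WT mock sample.

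The receptors and ligands of the pathway came first. *Egfr* itself gave 2.77, 0.92 and 2.26 in KO mock, against 2.75, 2.79, 2.41 and 2.14 in WT mock (difference −0.60 ± 0.49 SE, adjusted p = 0.533 in limma). Only KO mock sample 2 lay below the WT mock samples. The other *Egfr* probe gave 0.54, 0.13 and 1.43 in KO mock, against 1.59, 3.32, 1.90 and 0.61 in WT mock, and the groups overlapped there too. The sources used here do not place these probes relative to the deletion, and they therefore check no genotype label. *Erbb3*, the kinase-impaired partner receptor, gave −0.26, −0.50 and 1.09 in KO mock, against 1.80, 0.81, 0.83 and 0.82 in WT mock (−0.86 ± 0.47, adjusted p = 0.323). *Erbb2*, the partner without a ligand of its own, differed by 0.50 ± 0.43 (adjusted p = 0.569).

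Of the 8 EGF family ligands measured, 0 passed the threshold in limma and 1 had an unadjusted p under 0.05, with 4 differences positive and 4 negative. *Ereg*, the ligand epiregulin, had the most negative difference of these. Its probe with most values gave 0.94, 0.44 and 1.24 in KO mock, against 4.59, 0.72, 1.12 and 3.98 in WT mock (−1.71 ± 0.87, adjusted p = 0.290). Its other probe gave 0.96, 0.21 and 0.43 in KO mock, against 6.45, 3.24, 5.58 and 4.45 in WT mock, a difference of −4.32 ± 1.40 (adjusted p = 0.093). That probe separated the groups and the one before it did not. *Nrg4*, a neuregulin that binds ErbB4, gave 0.23, −0.52 and −0.06 in KO mock, against −2.09, −1.26, −3.23 and −0.88 in WT mock, above WT mock in every sample (1.76 ± 0.68, adjusted p = 0.161). The other *Nrg4* probe had a negative difference and overlapped between the groups (−0.26 ± 0.44, adjusted p = 0.80 in limma). *Tgfa* (−0.82 ± 0.62, adjusted p = 0.498) and *Hbegf* (−0.29 ± 0.67, adjusted p = 0.858), ligands that keratinocytes make for themselves, did not pass either. Among 14 adaptors and feedback inhibitors 0 passed, 1 had an unadjusted p under 0.05 and 10 differences were negative. The largest were at *Socs3*, a feedback inhibitor of cytokine signalling (−1.02 ± 0.49, adjusted p = 0.263), and *Cbl*, the ubiquitin ligase that sends EGFR to degradation (−0.85 ± 0.44, adjusted p = 0.296), and the groups overlapped at both.

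Downstream of the receptor, *Egr1*, an immediate early zinc finger factor induced through ERK, fell. It gave 0.27, 0.08 and 0.32 in KO mock, against 3.00, 2.98, 2.44 and 1.98 in WT mock (−2.39 ± 0.35, adjusted p = 6.64e-05). The lowest WT mock sample lay far above the highest KO mock sample. Of the 19 immediate early genes measured *Egr1* was the only one that passed, and 14 of 19 differences were negative with a median of −0.54, which was −0.07 with samples scaled to equal spread. *Fos*, the AP-1 subunit, gave −0.20, −0.15 and 0.01 in KO mock, against 2.56, 1.16, 1.52 and 2.32 in WT mock, without overlap (−2.11 ± 0.75, adjusted p = 0.125). Samples of 4 genes of this list lay without overlap below WT mock and of 1 above. Among 15 delayed ERK target genes 0 passed, 3 had an unadjusted p under 0.05 and 11 differences were negative. *Phlda1*, *Ccnd1*, which encodes cyclin D1, and *Hmga2* lay below WT mock in every sample, with differences of −1.73, −1.40 and −2.49 and adjusted p of 0.087, 0.162 and 0.191. The 3 other *Hmga2* probes spanned −0.90 to 0.62.

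In ras cells *Egr1* was lower in the knockout too (−3.30, adjusted p = 1.68e-11). Its level also differed between WT groups. The other 4 WT groups of runs 1 and 2, which are the 3 inhibitor-treated WT mock groups and WT ras, averaged 2.32 to 2.63. The 3 WT groups of later runs, WT ras with an inhibitor, averaged −0.16 to 0.01, and the 4 KO ras groups −0.67 to 0.75. In WT cells, then, *Egr1* was low without the knockout wherever the array came from a later run, and those arrays also had ras with an inhibitor. What part run had in the fall was not tested.

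**Figure D2:**
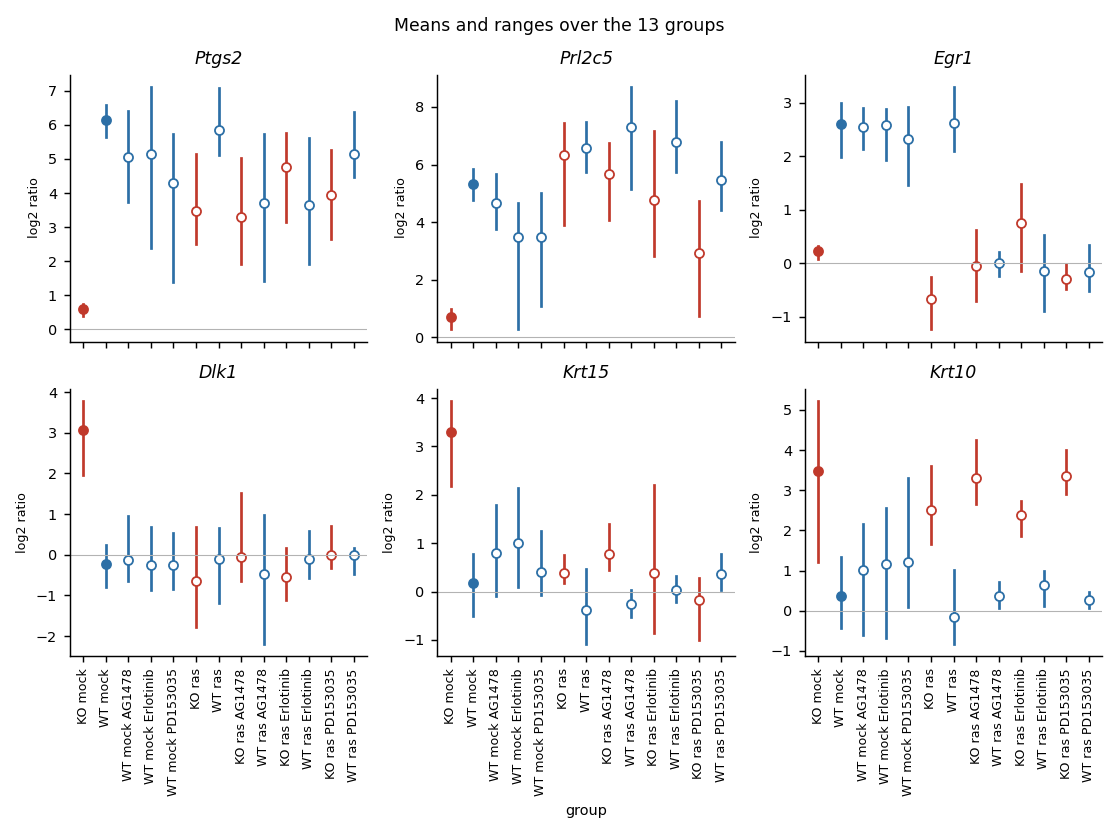
Mean log2 ratio (point) and range over samples (line) of 6 genes in the 13 groups, KO groups in red and WT groups in blue, with KO mock and WT mock filled. By mean, *Ptgs2* and *Prl2c5* are lowest and *Dlk1* and *Krt15* highest in KO mock. The *Krt10* mean is higher in each KO group than in each WT group, while ranges of KO and WT groups overlap.

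The largest difference among all probes tested was at *Ptgs2*, which encodes the inducible cyclooxygenase COX-2 of prostaglandin synthesis. It gave 0.73, 0.40 and 0.69 in KO mock, against 6.58, 5.65, 6.44 and 5.89 in WT mock (−5.50 ± 0.92, adjusted p = 0.00063). Every KO mock sample was close to the reference RNA and every WT mock sample far above it. Its other probe fell too (−4.81 ± 1.12, adjusted p = 0.0241). In bulk RNA, fewer cells of a type and less RNA per cell cannot be told apart. The mean of 0.61 in KO mock was below that of the 4 KO ras groups, 3.30 to 4.77, and of the 7 other WT groups, which spanned 3.66 to 5.86, against 6.14 in WT mock. Of the 7 other prostaglandin genes measured 0 passed and 1 had an unadjusted p under 0.05. *Pla2g4a*, the phospholipase that frees arachidonic acid, gave −1.63 ± 0.64 (adjusted p = 0.165).

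Proliferins, secreted members of the prolactin family that the placenta and growing cells make, showed nearly the same pattern. *Prl2c2* gave 0.75, 0.33 and 1.33 in KO mock, against 6.48, 4.93, 6.82 and 5.40 in WT mock (−5.25 ± 1.13, adjusted p = 0.0104). *Prl2c5* gave 0.99, 0.28 and 0.83 in KO mock, against 5.84, 4.78, 5.15 and 5.47 in WT mock (−4.75 ± 0.86, adjusted p = 0.00194). *Prl8a9*, another family member, was lower in every KO mock sample at 1.03, −0.22 and 1.11, against 4.68, 3.60, 5.81 and 4.12 in WT mock, and missed the threshold (adjusted p = 0.0643). Proliferin genes are near-identical copies, so a probe may read more than 1 of them. In all, 2 of 15 family members fell and 12 of 15 differences were negative, with a median of −0.62. *Prl2c2* and *Prl2c5* averaged 4.11 to 6.72 and 2.91 to 6.33 in the 4 KO ras groups, so no other group had a mean as low as KO mock.

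Neutrophil-attracting chemokines, which keratinocytes release on EGFR and cytokine stimulation, lay lower in KO mock. *Cxcl1*, the chemokine KC, gave −0.16, 0.16 and 0.08 in KO mock, against 3.88, 2.61, 4.58 and 3.44 in WT mock (−3.67 ± 0.86, adjusted p = 0.0241). The KO mock samples were at the level of the reference and did not overlap with WT mock. *Cxcl5* gave −0.10, −0.14 and −0.83 in KO mock, against 4.06, 2.18, 3.51 and 3.57 in WT mock, again with no overlap (−3.72 ± 1.35, adjusted p = 0.133). *Cxcl3* gave −0.30, −0.71 and 0.23 in KO mock, against 3.62, 3.39 and 2.89 in the WT mock samples 1, 3 and 5, and had no value in sample 2 (−3.75 ± 1.25, adjusted p = 0.102). *Cxcl2*, encoded beside them, gave 0.83, −0.21 and −0.04 in KO mock, against 1.19, 1.10, 1.70 and 0.15 in WT mock, and there the groups overlapped (−0.81 ± 0.45, adjusted p = 0.339). Of these 4 genes *Cxcl1* alone passed the threshold, and *Cxcl3* passed as well after scaling (−3.72, adjusted p = 0.0449). *Ccl20*, which draws dendritic cells and T cells, gave 0.98, 0.58 and 1.65 in KO mock, against 4.15, 3.31, 3.71 and 5.16 in WT mock, with an adjusted p of 0.0702. *Il1a*, the stored interleukin-1 of keratinocytes, lay below WT mock in all 3 KO mock samples (−2.19 ± 0.61, adjusted p = 0.0526) and passed after scaling (adjusted p = 0.0269).

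*Ccl27a*, the skin chemokine that draws memory T cells, went the other way. It gave 2.83, 2.41 and 3.18 in KO mock, against −0.51, 1.26, −0.65 and 0.09 in WT mock (2.72 ± 0.65, adjusted p = 0.0256). Of 24 chemokine and cytokine genes 1 rose and 1 fell, 18 of 24 differences were negative and the median was −0.73. Samples did not overlap at 6 genes lower and 3 higher. After scaling 2 of the list rose and 3 fell. The alarmin subunits S100A8 and S100A9 form calprotectin. *S100a9* fell, at −0.16, −0.02 and −0.50 in KO mock, against 2.79, 1.28, 2.85 and 3.02 in WT mock (−2.69 ± 0.65, adjusted p = 0.0258). *S100a8* gave −0.14, 0.03 and −0.15 in KO mock, against 2.85, 1.20, 2.79 and 2.67 in WT mock, with an adjusted p of 0.0588, which was 0.0412 after scaling. For both genes WT mock sample 2 was the lowest of its group and still above KO mock. Of 13 S100 genes 1 fell, and 8 of 13 differences were positive.

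**Figure D3:**
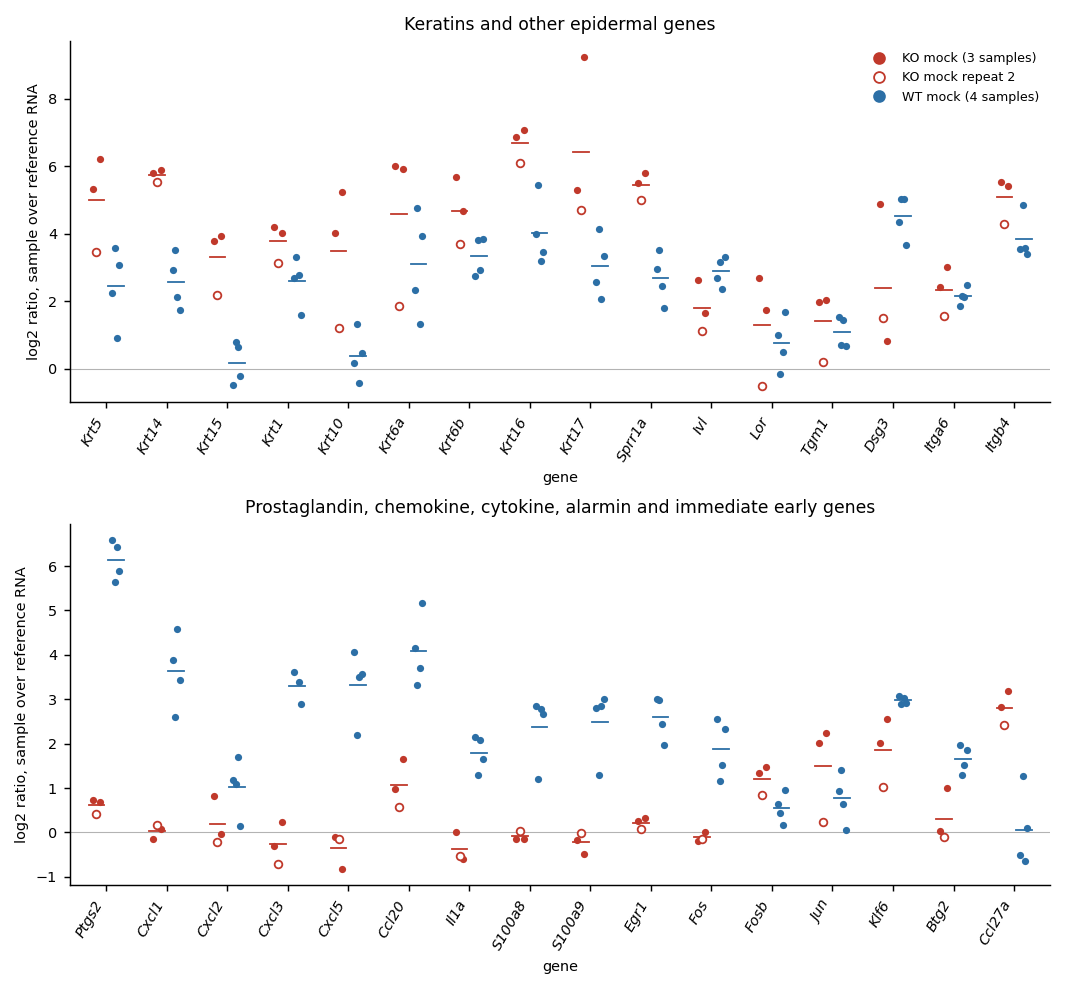
Log2 ratio of sample over reference for epidermal genes (top) and for inflammatory and immediate early genes (bottom). Each point is 1 sample, KO mock in red left of WT mock in blue, the open red point is KO mock sample 2 and the bars are group means. KO mock lies above WT mock at *Krt14*, *Krt15* and *Sprr1a* and below it at *Ptgs2*, *Cxcl1*, *S100a9* and *Egr1*, in every sample.

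The sequence before the start of the CXC chemokine genes is shown because these neighbours on chromosome 5 gave differences of unlike size. Each stretch runs from 150 to 31 bases before the RefSeq start, on the plus strand of build GRCm38.p6, and capitals mark the NF-kappaB motif, GGGA and TTCC with any 2 bases between them, together with its overlapping match on the opposite strand. The stretches lie at chr5:90891095-90891214, chr5:90903749-90903868 and chr5:90785951-90786070.
Cxcl1: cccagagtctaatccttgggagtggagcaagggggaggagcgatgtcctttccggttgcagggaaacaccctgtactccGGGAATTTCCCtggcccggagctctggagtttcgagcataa
Cxcl2: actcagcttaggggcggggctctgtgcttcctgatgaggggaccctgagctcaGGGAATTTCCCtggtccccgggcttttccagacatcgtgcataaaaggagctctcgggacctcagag
Cxcl3: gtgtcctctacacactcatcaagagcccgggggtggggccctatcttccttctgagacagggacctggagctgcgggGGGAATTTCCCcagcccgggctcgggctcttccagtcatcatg
All 3 hold the same capital letters, which begin 71, 97 and 73 bases before the start of *Cxcl1*, *Cxcl2* and *Cxcl3*. The motif, searched on both strands, was in 482 of 32851 RefSeq promoter windows of 300 bases (1.47%). NF-kappaB is the inflammatory transcription factor for which such letters are known. The match describes the sequence, and *Cxcl2* holds it as the other genes do.

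Basal epidermal genes lay higher in KO mock. *Krt15*, a keratin of basal cells and the hair follicle bulge, gave 3.80, 2.18 and 3.94 in KO mock, against −0.50, 0.78, 0.65 and −0.21 in WT mock (3.13 ± 0.48, adjusted p = 0.000137). *Krt14*, the main type I keratin of basal cells, gave 5.80, 5.54 and 5.90 in KO mock, against 2.93, 3.52, 2.13 and 1.74 in WT mock (3.10 ± 0.82, adjusted p = 0.0448). Neither gene overlapped between the groups, and *Krt14* was nearly as high in KO mock sample 2 as in the others. *Krt14* missed the threshold without that sample (adjusted p = 0.0611). *Krt5*, its type II partner, gave 5.32, 3.46 and 6.22 in KO mock, against 2.23, 3.56, 0.90 and 3.06 in WT mock, where KO mock sample 2 lay just below the highest WT mock sample (2.57 ± 1.01, adjusted p = 0.166, and 0.0336 after scaling). *Sox9*, a follicle stem cell factor, lay above WT mock in every KO mock sample (2.01 ± 0.55, adjusted p = 0.053), and passed after scaling (adjusted p = 0.000263) and without KO mock sample 2 (adjusted p = 0.0328). Of 16 genes in the basal list 2 rose, 13 of 16 differences were positive and the median was 0.76, which was 1.41 without KO mock sample 2 and 1.85 after scaling, where 7 of 16 rose. *Krt14* averaged 4.33 to 5.79 in the WT groups of later runs, where *Krt15* averaged −0.25 to 0.36.

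*Krt10*, the first keratin of cells that leave the basal layer, rose as well. It gave 4.01, 1.21 and 5.23 in KO mock, against 0.17, 1.33, −0.43 and 0.45 in WT mock (3.08 ± 0.68, adjusted p = 0.0158). KO mock sample 2 lay within the WT mock range and the other 2 far above it. The other *Krt10* probe rose by 2.37 ± 0.56 (adjusted p = 0.0248). *Krt10* averaged 2.39 to 3.36 in the KO ras groups, against −0.15 to 1.23 in the 4 other WT groups of runs 1 and 2 and 0.26 to 0.63 in the WT groups of later runs. The mean of each KO group was thus above that of each WT group at *Krt10*. In ras cells the difference was 2.65 (adjusted p = 0.0145).

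*Krt1*, the type II partner of *Krt10*, did not pass (1.18 ± 0.83, adjusted p = 0.465). *Sprr1a*, a small proline-rich protein of the cornified envelope, gave 5.51, 5.00 and 5.81 in KO mock, against 2.95, 3.51, 2.44 and 1.81 in WT mock (2.65 ± 0.70, adjusted p = 0.042). Its groups did not overlap. *Lce1g*, a late envelope gene, lay below WT mock in every sample (−3.16 ± 1.09, adjusted p = 0.112), as did the desmosomal cadherin *Dsc1* (−2.96 ± 1.38, adjusted p = 0.248). Of 37 suprabasal and envelope genes 2 rose and 0 fell, and 22 of 37 differences were negative, with a median of −0.30 that turned to 0.35 without KO mock sample 2. After scaling 4 of 37 rose. Among 19 desmosome and junction genes 0 passed, 3 had an unadjusted p under 0.05 and 2 rose after scaling. The desmosomal cadherins *Dsg3* (−2.11 ± 1.05, adjusted p = 0.282) and *Dsc2* (−2.11 ± 1.17, adjusted p = 0.334) had the largest differences of these. The stress keratins *Krt16* (2.55 ± 0.81, adjusted p = 0.0869) and *Krt17* (3.24 ± 1.14, adjusted p = 0.122), made in wounded epidermis, were above WT mock in every sample. They did not pass the threshold here and passed after scaling (differences 4.88 and 5.08, adjusted p = 0.0017 and 0.0159). Of the simple epithelial keratins, *Krt18* (1.54 ± 0.80, adjusted p = 0.303) and *Krt8* (−0.85 ± 0.95, adjusted p = 0.672) overlapped between the groups. *Krt84*, a hair keratin, rose with 3.63, 1.29 and 3.57 in KO mock, against −0.41, 1.26, −0.19 and −0.41 in WT mock (2.84 ± 0.50, adjusted p = 0.00143). Its KO mock sample 2 and WT mock sample 2 all but met. *Krt80*, listed beside it, gave 2.22 ± 0.89 (adjusted p = 0.180).

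Inhibitors and receptors of the BMP and Wnt pathways, which pattern the hair follicle, rose at 3 of 35 genes and fell at 0. *Sostdc1*, a secreted BMP and Wnt antagonist, gave 5.38, 4.28 and 5.39 in KO mock, against 0.79, 3.96, 1.51 and 1.02 in WT mock (3.16 ± 0.78, adjusted p = 0.0301). WT mock sample 2 was nearly as high as KO mock sample 2. *Id2*, a BMP-induced inhibitor of helix-loop-helix factors, gave 0.61, 0.93 and 0.65 in KO mock, against −0.88, −0.64, −1.90 and −0.95 in WT mock (1.80 ± 0.40, adjusted p = 0.0161). All KO mock samples lay above 0 and all WT mock samples below. *Id2* also averaged −1.47 to −0.99 in the other WT groups of runs 1 and 2, against 0.45 to 0.83 in the WT groups of later runs, and those later groups also had ras with an inhibitor. The part of run was not tested. The Wnt receptor *Fzd6* gave 3.77, 2.51 and 4.17 in KO mock, against 0.89, 2.49, 2.04 and 0.14 in WT mock (2.05 ± 0.53, adjusted p = 0.0397), and sample 2 of either group lay almost level. Over the list 24 of 35 differences were positive with a median of 0.46, and 12 genes lay without overlap above WT mock and 3 below. After scaling 4 of 35 rose.

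*Dlk1*, a membrane protein related to the Notch ligands and a marker of immature cells, had the smallest adjusted p of the genes named here. It gave 3.79, 1.96 and 3.49 in KO mock, against 0.24, 0.08, −0.48 and −0.79 in WT mock (3.46 ± 0.40, adjusted p = 3.26e-07). Its other probe was high in KO mock sample 3 alone, at 0.02, 0.74 and 4.02 in KO mock, against 0.47, 0.63, 0.41 and 0.68 in WT mock (adjusted p = 0.303). The *Dlk1* mean was 3.08 in KO mock, against −0.24 in WT mock, and the means of the 4 KO ras groups spanned −0.65 to 0.01. Of 20 Notch pathway genes 1 rose, 12 of 20 differences were positive and the median was 0.40. After scaling 3 rose, and without KO mock sample 2 also 3. *Hey1*, a Notch target, gave 0.07, −0.62 and −0.11 in KO mock, against −2.49, −2.30, −2.37 and −0.62 in WT mock (1.69 ± 0.65, adjusted p = 0.157).

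No gene of the cell cycle lists passed in limma, while most differences were negative. After scaling 2 replication genes and 1 mitotic gene fell and 1 cell cycle inhibitor rose. Without KO mock sample 2, 1 replication gene fell and 1 inhibitor rose. Of 34 DNA replication and G1/S genes 0 passed, 15 had an unadjusted p under 0.05, all lower, and 32 differences were negative, with a median of −0.85 and 12 genes without overlap, all lower. Of 32 mitotic genes 0 passed, 12 had an unadjusted p under 0.05, all lower, and 28 differences were negative, with a median of −0.58 and 8 genes without overlap, all lower. *Mki67*, the proliferation marker Ki-67, gave 0.48, −0.42 and 0.41 in KO mock, against 3.15, 1.23, 3.93 and 1.47 in WT mock (−2.21 ± 0.81, adjusted p = 0.139). *Cdk1*, the mitotic kinase, gave 0.09, 0.05 and −0.34 in KO mock, against 2.07, 0.86, 2.52 and 1.53 in WT mock (−1.76 ± 0.49, adjusted p = 0.0556). Samples of neither gene overlapped. *Ccne2*, a cyclin of the G1/S step (−1.48 ± 0.41, adjusted p = 0.0542, then 0.0254 after scaling and 0.0482 without KO mock sample 2), and *Orc1*, of the origin recognition complex (−1.83 ± 0.58, adjusted p = 0.0887), had the adjusted p nearest to the threshold and the largest difference of the replication list. *Cdt1*, a licensing factor of replication origins (−1.77 ± 0.64, adjusted p = 0.132), and *Hmmr*, of the mitotic spindle (−1.87 ± 0.57, adjusted p = 0.0778), also lay below WT mock in every sample. Among 15 cell cycle inhibitors 0 passed and 3 had an unadjusted p under 0.05, with 7 positive and 8 negative differences. *Btg2*, an antiproliferative gene, gave 0.03, −0.10 and 0.99 in KO mock, against 1.97, 1.28, 1.52 and 1.85 in WT mock (−1.34 ± 0.43, adjusted p = 0.0911). *Rb1*, the retinoblastoma protein, gave 1.90, 0.02 and 2.15 in KO mock, against 0.38, 0.31, 0.21 and 0.35 in WT mock (1.01 ± 0.32, adjusted p = 0.0906). Without KO mock sample 2, which lay below the WT mock samples, *Rb1* passed (1.68, adjusted p = 0.00213).

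**Figure D4:**
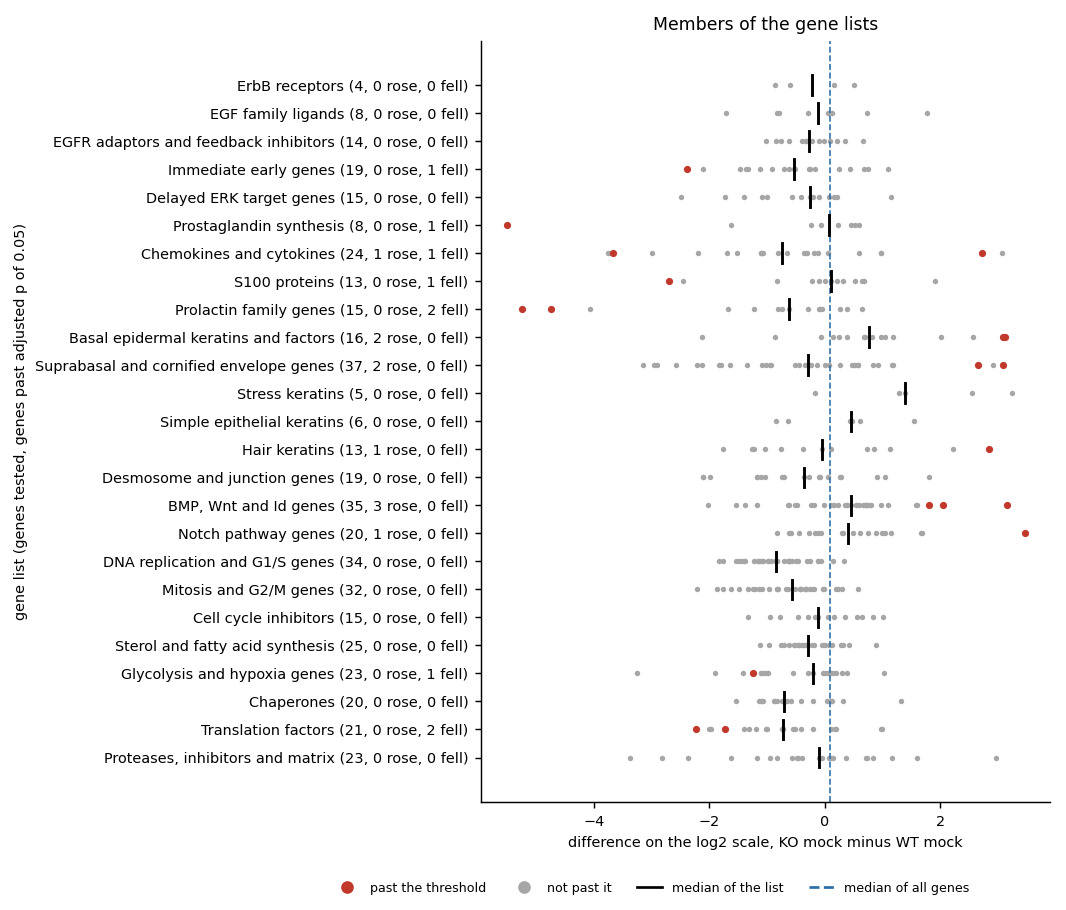
Difference on the log2 scale, KO mock minus WT mock (horizontal axis), for the genes tested in each list, with red points past an adjusted p of 0.05. The black bar is the median of the list and the dashed line the median over all genes, 0.10. The bars of the DNA replication (−0.85), translation (−0.73) and chaperone (−0.70) lists lie left of it and that of the basal list (0.76) right.

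Translation factors and nucleolar proteins fell at 2 of 21 genes, and 16 of 21 differences were negative with a median of −0.73. *Eef2*, the factor that moves the ribosome along the message, gave −2.04, −2.15 and −1.79 in KO mock, against 0.22, 0.43, 0.44 and 0.23 in WT mock (−2.23 ± 0.52, adjusted p = 0.0248). The samples of each group were close together and the groups wide apart. Of its 15 probes 8 fell, 13 were negative and the differences spanned −2.86 to 0.53. *Eef2* averaged −1.62 to 0.25 in the KO ras groups, against −0.92 to 0.24 in the WT groups of later runs and 0.21 to 0.58 in the others. *Npm1*, the nucleolar protein nucleophosmin, gave 0.88, −0.40 and 0.48 in KO mock, against 1.67, 1.79, 2.25 and 2.42 in WT mock (−1.72 ± 0.35, adjusted p = 0.00671), and missed the threshold without KO mock sample 2 (adjusted p = 0.0523). *Pabpc1*, the poly(A)-binding protein, gave −1.90, −2.40 and −2.75 in KO mock, against −0.38, −0.17, −0.41 and −0.11 in WT mock (adjusted p = 0.0854), and passed after scaling (adjusted p = 0.00513). Among 20 chaperone genes 0 passed, 9 had an unadjusted p under 0.05 and 15 differences were negative, with a median of −0.70. After scaling 1 rose and 2 fell, and without KO mock sample 2, 3 fell. *Canx*, the chaperone calnexin, lay below WT mock in every sample (−1.53 ± 0.57, adjusted p = 0.142). *Hspb1*, the small heat shock protein HSP27, lay above it in every sample (1.32 ± 0.44, adjusted p = 0.100) and passed after scaling (adjusted p = 0.014). The other *Hspb1* probe overlapped between the groups (0.07, adjusted p = 0.971 in limma). *Pkm*, the glycolytic pyruvate kinase, gave 1.27, 1.05 and 1.71 in KO mock, against 2.85, 2.89, 2.42 and 2.41 in WT mock (−1.24 ± 0.33, adjusted p = 0.0448), and lost the call after scaling (adjusted p = 0.306) and without KO mock sample 2 (adjusted p = 0.115). It was the only one of 23 glycolysis and hypoxia genes that passed. *Adm*, the hypoxia-induced peptide adrenomedullin, lay below WT mock in every sample (−3.26 ± 0.89, adjusted p = 0.0506) and passed after scaling (adjusted p = 0.0251). *Pfkp*, the platelet phosphofructokinase, overlapped (−1.90 ± 0.96, adjusted p = 0.288). Of 25 sterol and fatty acid synthesis genes 0 passed, 3 had an unadjusted p under 0.05 and 1 fell after scaling. The largest differences there were at *Msmo1* (−1.12 ± 0.51, adjusted p = 0.240) and *Scd2* (−0.97 ± 0.57, adjusted p = 0.364). Of 23 protease, inhibitor and matrix genes 0 passed and 6 had an unadjusted p under 0.05. *Serpinb2*, the plasminogen activator inhibitor PAI-2, gave 2.13, 0.71 and 3.82 in KO mock, against 5.39, 6.44, 6.31 and 4.16 in WT mock (−3.38 ± 1.27, adjusted p = 0.149). *Klk6*, a kallikrein protease, gave 3.09, 1.90 and 5.65 in KO mock, against 0.12, 1.00, 1.05 and −0.18 in WT mock (2.97 ± 1.02, adjusted p = 0.114), and passed after scaling (adjusted p = 0.0227). Both separated the groups.

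Single genes outside the lists were among the largest falls. *Ppp1r37*, a regulatory subunit of protein phosphatase 1, gave −3.21, −1.99 and −3.83 in KO mock, against −0.21, −0.40, −0.43 and 0.45 in WT mock (−2.76 ± 0.46, adjusted p = 0.00063). *Acot7*, an acyl-CoA thioesterase, gave −3.91, −3.15 and −3.70 in KO mock, against −0.76, −1.25, −1.08 and −0.37 in WT mock (−2.68 ± 0.63, adjusted p = 0.0241). Both separated the groups widely at these probes. *Acot7* fell at 1 of its 4 probes. The others gave −1.51, −0.57 and −0.33 (adjusted p = 0.248, 0.647 and 0.755 in limma), and the groups overlapped there. *Rbbp7*, a histone-binding protein of chromatin complexes (−2.26 ± 0.41, adjusted p = 0.00194), and *Impdh1*, of guanine nucleotide synthesis (−2.21 ± 0.44, adjusted p = 0.00556), fell as well. *Mbnl3*, a splicing regulator, fell, at −0.07, −0.13 and 0.45 in KO mock, against 2.54, 3.69, 2.93 and 1.81 in WT mock (−2.59 ± 0.66, adjusted p = 0.0394). The cytoskeletal genes *Arhgap35*, a GTPase-activating protein (−2.58 ± 0.61, adjusted p = 0.0248), and *Macf1*, which links actin and microtubules (−2.56 ± 0.67, adjusted p = 0.0416), fell. The olfactory receptor gene *Olfr1093* fell too (−2.59 ± 0.52, adjusted p = 0.00605). The other probe of *Macf1* did not pass in limma (−0.58, adjusted p = 0.629), and the groups overlapped there. *Cd44*, the hyaluronan receptor, was read by 9 probes, all with negative differences. Of these 1 fell, at 0.39, −0.18 and 0.23 in KO mock, against 5.30, 5.63, 5.67 and 3.72 in WT mock (−4.87 ± 1.19, adjusted p = 0.0285), and the smallest difference was −0.86.

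Several of the largest rises were at genes that keratinocytes are not known for, and whose ratios lay far below the reference in WT mock. *Spag17*, a protein of sperm and cilia, gave −0.02, 0.11 and 1.47 in KO mock, against −3.29, −4.07, −2.97 and −3.04 in WT mock (3.79 ± 0.77, adjusted p = 0.0066). *Sycp2*, of the meiotic synaptonemal complex, gave −1.04, 0.20 and 0.03 in KO mock, against −4.35, −5.29, −4.26 and −2.54 in WT mock (3.77 ± 0.98, adjusted p = 0.0394). KO mock was near the reference and WT mock below it. *Spag17* averaged −0.63 to 0.41 in the WT groups of later runs, which also had ras with an inhibitor, and −1.91 to −1.23 in the KO ras groups. *Sycp2* averaged −2.78 to −1.73 and −2.755 to −2.135 in the same groups. The part of run was not tested. *Tex29*, a testis-expressed gene (3.61 ± 0.91, adjusted p = 0.0337), *Ms4a13*, of the MS4A family (3.37 ± 0.89, adjusted p = 0.042), *Adam6a*, of the ADAM family (3.04 ± 0.74, adjusted p = 0.0285), and *Dusp21*, a dual specificity phosphatase (2.96 ± 0.68, adjusted p = 0.0217), rose, with ratios below 0 in every WT mock sample. The tetraspanin *Tspan8* (3.32 ± 0.87, adjusted p = 0.0402) and the nucleosome assembly relative *Nap1l5* (3.06 ± 0.78, adjusted p = 0.0365) did likewise. The other probe of *Ms4a13* did not pass in limma (1.30, adjusted p = 0.419), and the groups overlapped there. *Lsm12* rose at 1 of its 4 probes, at 2.06, 0.34 and 2.29 in KO mock, against −0.93, −2.21, −1.11 and −0.71 in WT mock (2.78 ± 0.49, adjusted p = 0.00136), and its probes spanned −0.63 to 2.78. Of the 36 named genes that passed, 12 missed the threshold without KO mock sample 2, among them *Dusp21*, *Nap1l5*, *Tspan8*, *Ms4a13*, *Tex29*, *Sycp2*, *Mbnl3*, *Arhgap35* and *Macf1* (adjusted p = 0.0598 to 0.193 for these 9). Of 28 male germ cell genes 4 rose, 22 differences were positive and the median was 1.20, which was 0.67 without KO mock sample 2 and 0.42 after scaling, where 4 rose and 4 fell. Without KO mock sample 2, 1 rose. The reference holds testis RNA, and the summed log2 ratio of these genes was −99.8 to −50.2 in KO mock, against −138 to −87.9 in WT mock. KO mock sample 2 lay nearest to 0 of the 7 samples for low probes, as given above. What part the narrow spread had in these rises was not tested.

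Markers of fibroblasts, endothelium, leukocytes and melanocytes were read beside these results, and 0 of them passed in limma. Fibroblast markers were positive in 17 of 20 genes, 6 of 20 had an unadjusted p under 0.05, 5 of them higher and 1 lower, and 6 lay without overlap above WT mock and 1 below. Their summed log2 ratio was −4.96 to −0.14 in KO mock, against −19.8 to −13.1 in WT mock. Endothelial markers were positive in 10 of 13 genes, 6 at an unadjusted p under 0.05, with sums of −18.4 to −9.06 in KO mock, against −37.7 to −11.6 in WT mock. Leukocyte and Langerhans cell markers were positive in 12 of 19 genes, 4 at an unadjusted p under 0.05, with sums of −28.5 to −8.54 in KO mock, against −46.5 to −17.0 in WT mock. Melanocyte markers were positive in 8 of 11 genes, 2 at an unadjusted p under 0.05, with sums of 8.29 to 34.1 in KO mock, against 11.2 to 26.1 in WT mock. The 1 melanocyte marker without overlap, *Tyr*, lay below WT mock, and after scaling 2 of the list rose. Among all genes 2617 of 14526 had an unadjusted p under 0.05 in limma. The leukocyte and melanocyte counts were close to that share, and the fibroblast and endothelial counts were above it. Of 13 hair follicle bulge and germ markers 1 rose and 10 differences were positive, with a median of 0.89. After scaling 4 of these rose, and without KO mock sample 2 also 4. Of 18 keratinocyte markers 1 rose, with 5 after scaling and 0 without KO mock sample 2. Ratios to a reference pool of cell lines have no zero of expression, so which markers were absent cannot be read from them. Their part in the results was not tested.

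The same genotype difference was measured in other samples, transduced with ras. There 536 of 27966 probes passed (1.92%), 32 higher and 22 lower in both KO mock and KO ras, and 0 in opposite directions. Of the 36 named genes that passed in mock cells 7 passed in ras cells in the same direction. Of the 310 probes called in mock cells 284 had the same sign in ras cells. The share with the same sign over all probes was not counted, so this number has no base to be read against. WT mock and WT ras share runs 1 and 2, so the pair is not independent of run. *S100a9* (−2.05, adjusted p = 0.0319), *Eef2* (−1.94, adjusted p = 0.0129), *Id2* (1.45, adjusted p = 0.0156) *Sostdc1* (2.89, adjusted p = 0.0129) and *Rbbp7* (−1.69, adjusted p = 0.00597) passed in ras cells too, besides *Egr1* and *Krt10* given above. *Ptgs2* (−2.40, adjusted p = 0.0811), *Prl2c5* (−0.25, adjusted p = 0.898), *Krt14* (0.44, adjusted p = 0.797) and *Krt15* (0.76, adjusted p = 0.330) did not.

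The test of whether the difference in mock cells departs from that in ras cells called 3 probes of 27910 (0.0107%), at *Dlk1* (4.01 ± 0.52, adjusted p = 9.67e-06), *Cd320* (3.22 ± 0.60, adjusted p = 0.0231) and *Cyp2c37* (3.28 ± 0.63, adjusted p = 0.0318). *Cd320*, the transcobalamin receptor, gave 2.25, 0.04 and 3.24 in KO mock, against −0.10, 0.20, −1.17 and −0.49 in WT mock, and KO mock sample 2 lay among the WT mock samples. *Cyp2c37*, a cytochrome P450, differed by −2.26 in ras cells and by 1.02 in mock cells (adjusted p = 0.247 there). Without KO mock sample 2 the test called 52 probes, and with run as a random block 1.

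**Figure D5:**
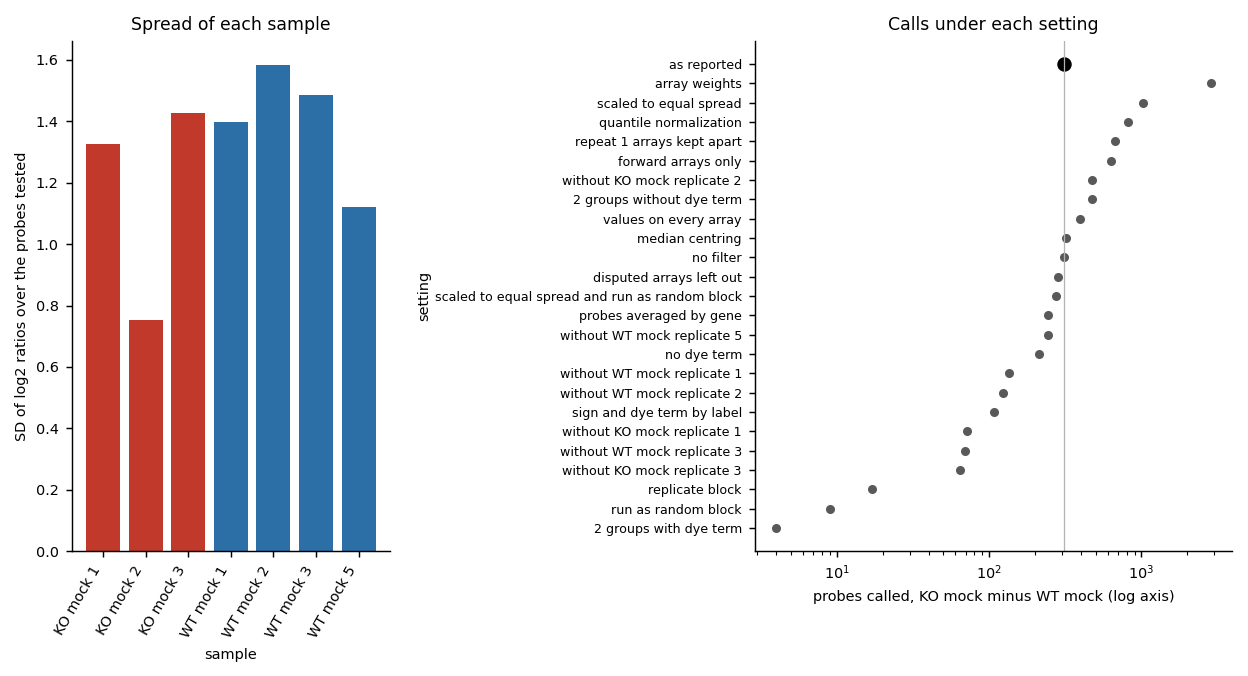
Left, the SD of the log2 ratios over the probes tested in each sample, KO mock in red and WT mock in blue. Right, the number of probes called for KO mock minus WT mock on a log axis under each setting, with the value as reported (310) in black. KO mock sample 2 has the lowest bar, 0.753, and the counts run from 4 to 2846.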

How the data were processed

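The authors deposited log ratios of 2 dyes per probe, taken here as log2 from their spread. Per the labels' protocols, RNA was isolated with Trizol, its cDNA was coupled to Cy3 or Cy5, and a universal mouse reference RNA took the other dye. Normalization, background correction and array build are not given in the sources used here. The sign of an array was set so that it correlated positively with the median over forward arrays, which makes every ratio sample over reference. This went against the label on 2 arrays, both KO ras with AG1478. They enter the shared estimate of spread, the dye term and the means given for the KO ras groups. With both left out 281 probes passed for KO mock minus WT mock. Of 28049 probes 20925 had 1 gene symbol, 159 several and 6965 none. Arrays held 24860 to 28047 values.

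The fit used limma 3.58.1 (R 4.3.3, statmod 1.5.0) on all 13 groups with a dye term and Benjamini-Hochberg adjustment over probes with values in a share of at least 0.6 of the arrays of both groups. Runs were parted where experiment numbers differ by over 100. As a random block, run had a consensus correlation of 0.24. The probe with most values stands for a gene. The text names, among called genes without overlap and with a value in every sample, the 15 largest differences in each direction, all called list members, the 2 members of each list with the largest difference, and every probe of *Egfr*, *Erbb2*, *Erbb3* and *Cd44*. Clone and locus codes were skipped. *Tgfa*, *Hbegf*, *Ccnd1*, *Prl8a9*, *Cxcl2*, *Ccl20*, *Il1a*, *Krt5*, *Sox9*, *Krt1*, *Dsc1*, *Cdk1*, *Ccne2*, *Cd320*, *Cyp2c37* and *Tyr* were added after their values were seen. Members and lists were chosen with earlier results of these data known. The fit was tested on simulated data. Alternatives were another dye term, normalization, filter, set of groups, probe averaging, array weights, sign by label, blocks for run or replicate number, and each sample left out. Scaling all arrays to an equal median absolute deviation was added after seeing the data. Promoter letters are from RefSeq.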

Additional observations from a re-analysis of the deposited data

Results flagged for a closer look

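Within WT mock, 9 of 74 genes tested had 1 sample whose gap to its nearest neighbour was too large a share of the group's range by Dixon's test, and chance puts about 1 in 20 groups there. WT mock sample 2 stood off at *Krt84* (1.26), *Dsc2* (0.95), *S100a9* (1.28), *S100a8* (1.20) and *Rbbp7* (0.53), high at the first and low at the others. WT mock sample 5 stood off at *Tex29* (−3.15), *Hey1* (−0.62) and *Olfr1093* (2.94), high at each, and WT mock sample 1 was high at *Erbb3* (1.80). KO mock, with 3 samples, was not tested in this way.

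The genotype difference in mock cells departed from that in ras cells at *Dlk1* (4.01), *Cd320* (3.22) and *Cyp2c37* (3.28), by limma's test of the difference itself.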

How the results depend on the processing

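No named gene that passed the threshold changed sign under an alternative, and *Ptgs2* kept its call in all 24. The count of 310 probes was 635 with forward arrays alone, 673 with the repeat 1 arrays kept apart, 820 with quantile normalization, 474 in a fit of KO mock and WT mock without a dye term and 4 with one, 2846 with array weights, 107 with sign and dye term by label, 9 with run as a random block and 1024 with samples scaled to equal spread. Run and scaling together gave 276. Leaving out 1 sample gave 64 (without KO mock sample 3) to 476 (without KO mock sample 2), with 72 without KO mock sample 1 and 135, 123 and 69 without WT mock samples 1, 2 and 3. The 3 probes that differ between mock and ras became 1 with forward arrays, quantile normalization or run as a random block, 108 with array weights, 8 after scaling, and 1 to 52 with a sample left out. Of 36 named genes that passed, 2 did so in the fit of both groups alone with a dye term, 17 with sign and dye term by label, 5 with the run block, and 12 to 28 with a sample left out. The 19 calls among list members became 35 with forward arrays, 40 with the repeat 1 arrays apart, 41 with quantile normalization, 29 and 2 in the fits of both groups without and with a dye term, 104 with array weights, 8 by label, 4 with the run block, 47 after scaling, and 7 to 24 with a sample left out. The cause of these moves was not tested.

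Replicate numbers 1, 2 and 3 occur in both groups. The correlations of same-numbered samples' deviations were 0.10, −0.24 and 0.17, and those of samples with unlike numbers spanned −0.33 to 0.43. With so few samples these values cannot decide whether the numbers pair the samples. With the replicate block 17 probes, 4 named genes and 4 list members passed.

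The limits are these. KO mock has 3 samples, all of run 4, and the narrowest array among them. Signal over background is not known from log ratios, so no bound for dim probes can be given. The list medians of ErbB receptors (−0.22, 0.05 after scaling), prostaglandin genes (0.08, −0.43) and simple epithelial keratins (0.45, −0.11) turned sign.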

Other observations

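These families were picked after their values were seen. Metallothioneins, which bind zinc and other metals, rose at 3 of 4 genes. *Mt1* gave 0.54, 1.92 and 1.10 in KO mock, against −1.38, −1.33, −1.45 and −1.27 in WT mock (2.49 ± 0.37, adjusted p = 7.18e-05 in limma). *Mt2* gave 1.81, 2.09 and 1.73 in KO mock, against −0.99, −0.43, −0.13 and −1.11 in WT mock (2.45 ± 0.53, adjusted p = 0.0104). The groups were apart at both, and KO mock sample 2 was the highest. *Mt1* averaged −1.47 to −1.125 in the other WT groups of runs 1 and 2. It averaged −0.255 to 0.28 in the WT groups of later runs, which also had ras with an inhibitor. In the KO ras groups it averaged −0.85 to −0.02, against 1.19 in KO mock. The part of run was not tested. The zinc importers *Slc39a8* (2.05 ± 0.40), *Slc39a10* (1.53 ± 0.41) and *Slc39a13* (1.17 ± 0.29) rose, 3 of 11 of their family, while 0 of 7 zinc exporters of the ZnT family passed. The other probe of *Slc39a10* rose too (1.67, adjusted p = 0.00496). Those of *Slc39a8* (0.12, adjusted p = 0.934) and *Slc39a13* (−0.50, adjusted p = 0.664) did not pass.

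The Wnt receptor *Fzd1* gave 2.36, 2.15 and 2.31 in KO mock, against 0.19, −0.24, −0.37 and 0.62 in WT mock (2.16 ± 0.28), and the taurine transporter *Slc6a6* gave 2.05, 2.11 and 2.04 in KO mock, against −0.17, 0.00, −0.19 and −0.30 in WT mock (2.18 ± 0.29). Of 9 Frizzled receptors 2 rose, 5 differences were positive and the median was 0.05. At *Fzd1* and *Slc6a6* the KO mock samples, sample 2 included, lay within a narrow band. The glypicans *Gpc3* (2.38 ± 0.53) and *Gpc4* (1.91 ± 0.48) rose, 2 of 6 of their family. At *Gpc3* KO mock sample 2 (−0.40) was all but level with the highest WT mock sample (−0.42). At *Gpc4* the groups overlapped, and its other probe did not pass in limma (0.85, adjusted p = 0.327). Of 31 nucleolar genes 5 fell and 24 differences were negative, among them *Mak16* (−1.82 ± 0.36) and *Nop2* (−2.06 ± 0.56), which serve ribosome assembly. The other probes of *Mak16* (−1.32, adjusted p = 0.0946) and *Nop2* (−0.52, adjusted p = 0.453) did not pass in limma.

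Of 9 sex-linked genes, X-linked and Y-linked counted together, 1 fell and 0 rose, with 4 positive and 5 negative differences. *Xist*, the X-inactivation RNA, gave −1.31, −0.70 and −0.59 in KO mock, against 0.15, 1.21, 0.38 and 0.52 in WT mock at 1 probe (adjusted p = 0.259), and −0.87, 0.26 and −2.89 in KO mock, against −0.13, 1.13, 0.81 and 0.27 in WT mock at the other (adjusted p = 0.152). The Y-linked *Kdm5d* gave 2.23, 1.53 and 3.06 in KO mock, against 0.52, 0.58, 1.31 and 0.87 in WT mock (adjusted p = 0.268). *Eif2s3y*, also on the Y, gave 2.13, 0.64 and 0.98 in KO mock, against 0.03, −0.06, −0.51 and 0.56 in WT mock (adjusted p = 0.2155). Neither of these genes overlapped between the groups, while both probes of the Y-linked *Uty* did. *Eif2s3x*, on the X, fell (−1.34 ± 0.34, adjusted p = 0.0339). Of 526 X-linked genes 6 rose (1.14%) and 3 fell (0.570%), against 0.84% and 0.379% of all genes. The sex of the mice is not given in the labels, and its part in the results was not tested.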
